A study of Mus musculus with 4 samples.

Results

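The genes described here are the cytochrome P450 enzymes of families 1 to 4 in the mouse colon. They were taken as every gene whose array name is Cyp, a family number from 1 to 4, a subfamily letter and a gene number, without Cyp2e1, which gave 68 genes measured by 90 probes, of 27357 genes on the array. The study asked how the loss of Pla2g3, which encodes a secreted phospholipase A2, affects the colon of mice given azoxymethane (AOM), a colon carcinogen. It measured colon RNA on 4 one-color arrays, and the paper describes the tissue as whole descending colon. All mice were males, 42 weeks old, of the strain B6.129 (n3), that is after 3 backcross generations from a mixed C57BL/6 and 129 Sv cross, and the deletion was in the germ line and not limited to a tissue. The 4 groups were Pla2g3+/+ with vehicle, Pla2g3-/- with vehicle, Pla2g3+/+ with AOM and Pla2g3-/- with AOM. Vehicle was saline. AOM was given into the peritoneum in weekly doses of 10 mg/kg over 6 weeks, and the colon was taken 28 weeks after the final dose. Each group was 1 pool of RNA from 3 to 5 mice on 1 array, so no value below has a replicate check, and the comparisons share arrays.

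P450 enzymes of families 1 to 4 are heme proteins of the endoplasmic reticulum that insert 1 oxygen atom into their substrates with electrons passed on by a reductase. Families 1, 2 and 3 oxidize drugs, carcinogens and steroids, and members of subfamilies 2c and 2j also form epoxides from arachidonic acid, a fatty acid that phospholipases A2 can release. Family 4 mostly hydroxylates the end of fatty acid chains, including that of leukotriene B4. Many of these genes lie in clusters of recent duplicates, and many respond to receptors that sense xenobiotics or lipids.

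Of the 68 genes, 38 gave a signal well above background on all 4 arrays, 7 on 3 arrays, 6 on 2, 4 on 1 and 13 on none. The 75th percentile of processed intensity was 646 and 650 on the vehicle arrays and 1309 and 1169 on the AOM arrays. Every level below is therefore the processed intensity divided by that percentile of its own array, called relative intensity, unless processed intensity is named. Levels of different genes come from different probes and were not set against each other, except that levels of marker lists were summed. Such a sum is weighted toward its brightest probes. Ratios are given on the log2 scale, and the threshold was 2-fold, a log2 ratio of 1 in either direction. Where 1 of the 2 signals was not well above background, the ratio is a bound, written as at least so many fold, and where both were not, none is given. Spots of the same probe on 1 array differed by a median SD of 0.0574 to 0.0657 on the log2 scale, which covers technical error within an array only.

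Signal of the targeted gene went against the genotype labels. The brightest probe for Pla2g3, at chr11:3394109-3394168 of mm9, gave a processed intensity of 343 on the Pla2g3+/+ array and 426 on the array labelled Pla2g3-/- with vehicle, and 304 and 1632 after AOM. Where the probe lies relative to the deleted sequence is not given in the sources used here. All directions between genotypes below follow the labels. Markers of cell types also moved between arrays. The summed relative intensity of 8 smooth muscle markers was 664, 701, 42.3 and 641 in the order Pla2g3+/+ vehicle, labelled Pla2g3-/- vehicle, Pla2g3+/+ AOM and labelled Pla2g3-/- AOM, and all 8 were over 2-fold lower on the Pla2g3+/+ AOM array than on its vehicle array (median -4.28). That of 12 colonocyte markers was 725, 760, 105 and 437 in the same order, and all 12 were well above background on every array. Of the 12, 8 were over 2-fold lower on the Pla2g3+/+ AOM array than on its vehicle array, most of all Aqp8 (-8.03) and Slc26a3 (-6.16). The other 4 lay within 2-fold (-0.54 to 0.96). Fewer cells of a type and less RNA per cell cannot be told apart in RNA of whole tissue. The part of these markers in the P450 results was not tested.

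**Figure D1:**
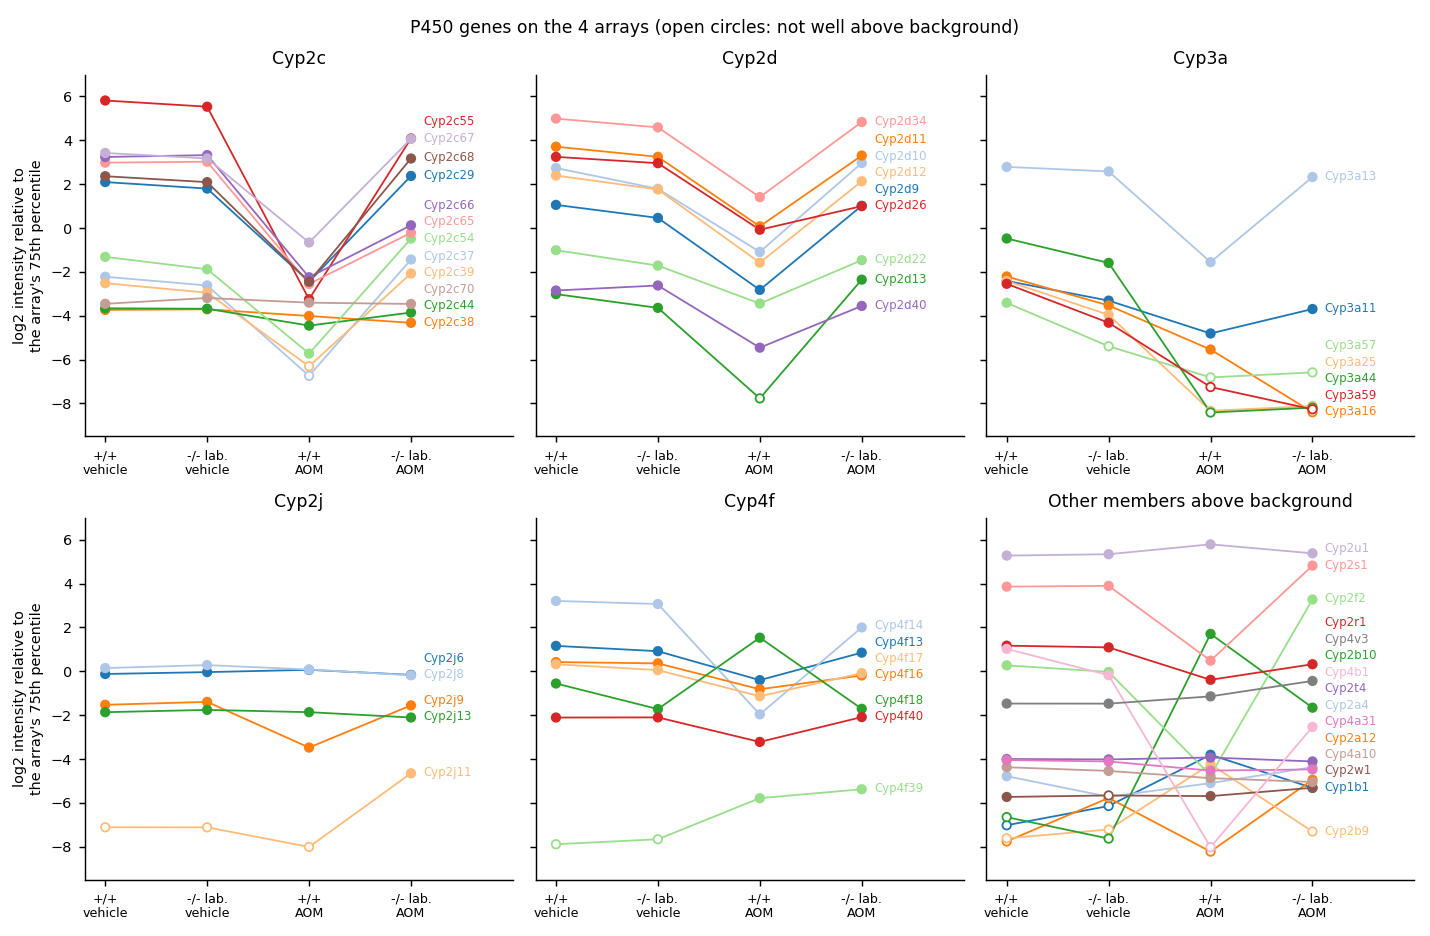
Relative intensity on the log2 scale (y axis, 0 is the 75th percentile of the array) of the 55 P450 genes well above background on at least 1 array, on the 4 arrays (x axis), by subfamily. Each line is 1 gene and each point 1 array; open circles are signals not well above background. Levels should be read along a line, since lines come from different probes. Most Cyp2c and Cyp2d genes dip on the Pla2g3+/+ AOM array. Of the Cyp3a genes, Cyp3a13 and the chosen probe of Cyp3a11 dip there and the other 5 are low on both AOM arrays.

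AOM treatment was accompanied by lower levels of most P450 genes in Pla2g3+/+ colon. In Pla2g3+/+ colon, 35 of the 53 genes with a value were over 2-fold lower after AOM, where 22.5% of all genes were, and 4 were higher, where 15.3% of all genes were. The median log2 ratio of AOM over vehicle was -2.61 for the P450 genes and -0.19 for all genes. The size of the P450 median depended on the processing, with -1.09 after normexp background correction and quantile normalization, -1.59 without scaling and -1.51 without the filter on dim probes. The normexp setting added an offset of 50 to each intensity, which pulls log2 ratios of dim signals toward 0 by construction. In colon labelled Pla2g3-/-, 10 of 53 were lower, where 16.3% of all genes were, and 9 were higher, where 10.4% of all genes were. The median there was -0.07 for the P450 genes and -0.10 for all genes. Without scaling between arrays, the median over all genes became 0.85 in Pla2g3+/+ and 0.74 in colon labelled Pla2g3-/-, and the share of higher genes among all genes past 2-fold went from 40.5% to 86.6% and from 39.0% to 89.4%. The number of P450 genes higher after AOM then became 12 and 19, and the ratios are therefore to be read relative to the 75th percentile.

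The 51 genes with a value in both genotypes are given with the share of all genes that showed the same pair of directions. After AOM, 18 (35.3%) were lower in Pla2g3+/+ and within 2-fold in colon labelled Pla2g3-/-, where 12.8% of all genes were. Another 10 (19.6%) were lower in both, where 8.65% of all genes were, and 6 (11.8%) were lower in the first and higher in the second, where 1.14% of all genes were. A further 12 (23.5%) stayed within 2-fold in both, where 52.6% of all genes did. In Pla2g3+/+ only, 2 were higher, in colon labelled Pla2g3-/- only, 2 were, and Cyp2b10 was higher in both, where 8.58%, 4.39% and 4.61% of all genes were. Whether the response to AOM differed between the genotypes could not be tested with 1 array per group.

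**Figure D2:**
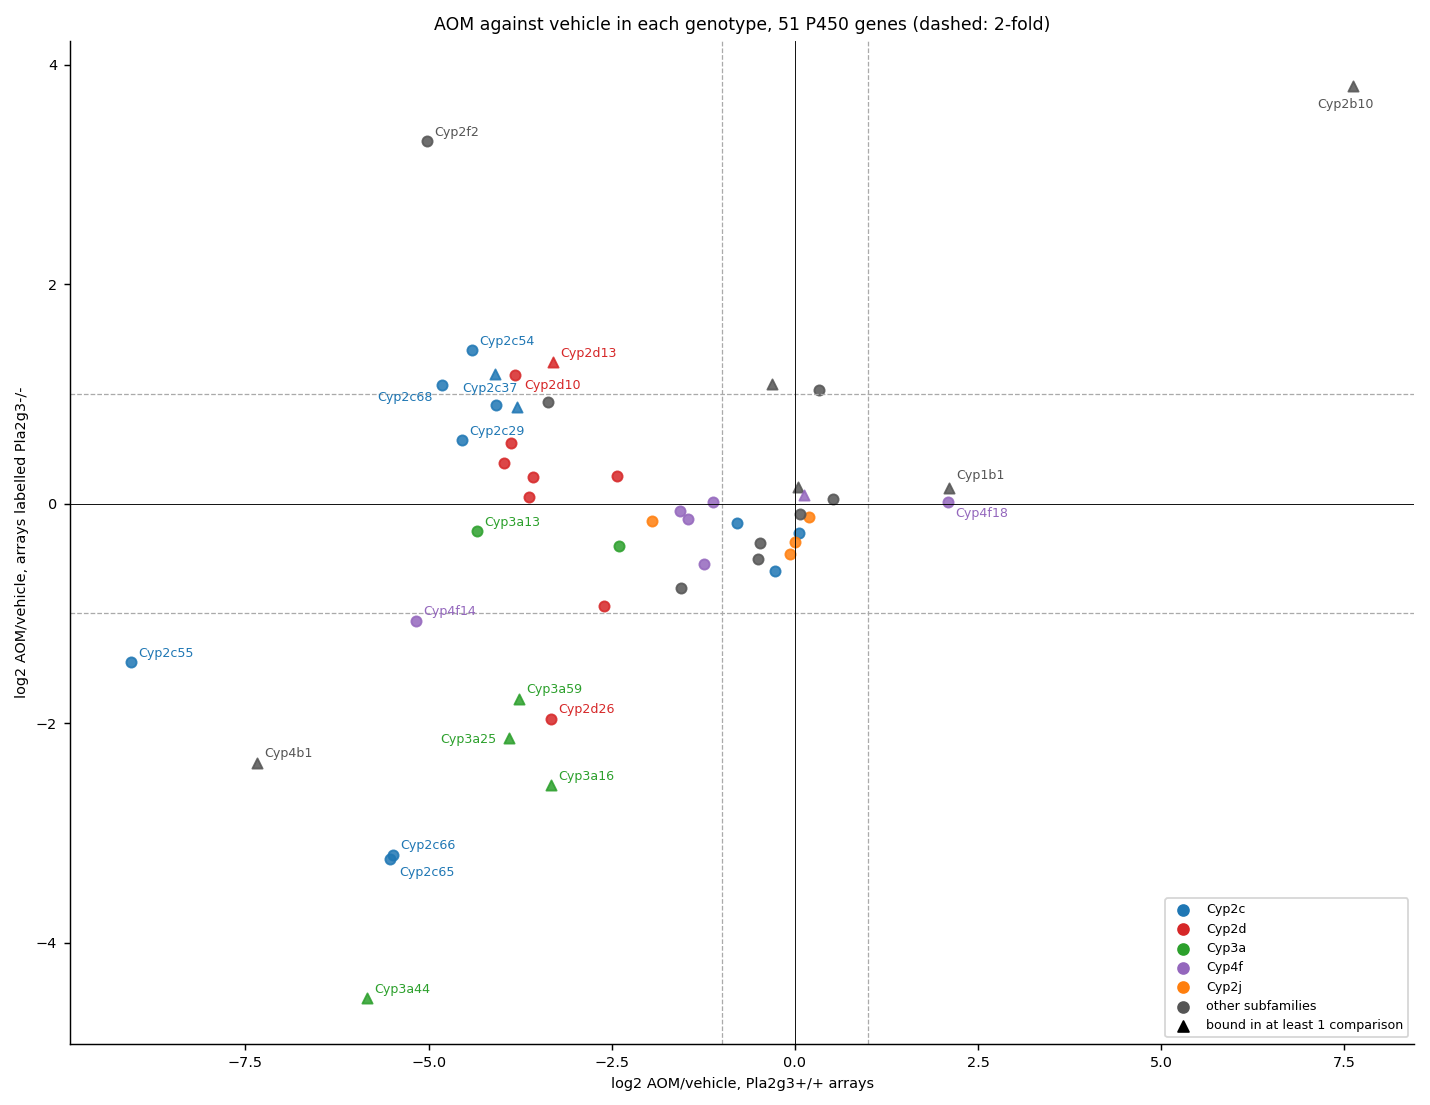
Log2 ratio of AOM over vehicle for 51 P450 genes in Pla2g3+/+ colon (x axis) and in colon labelled Pla2g3-/- (y axis). Each point is 1 gene, triangles are bounds in at least 1 of the 2 comparisons and dashed lines mark 2-fold; Cyp2f2 lies at the upper left (-5.02 and 3.30), Cyp2b10 at the upper right, and 4 Cyp3a genes and Cyp2c65 and Cyp2c66 at the lower left.

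The Cyp2c genes, epoxygenases and drug oxidases encoded in 1 cluster on chromosome 19 with Cyp2c44 apart from it, fell into 3 patterns. Of the 12 with a value, 9 were lower after AOM in Pla2g3+/+ colon (median of the 12, -4.25), while 3 were higher and 3 lower in colon labelled Pla2g3-/- (median 0.20). Cyp2c55, Cyp2c65 and Cyp2c66, neighbors at 1 end of the cluster, were lower in both genotypes. Relative intensity of Cyp2c55, which oxidizes arachidonic acid, was 56.3 with vehicle and 0.105 after AOM in Pla2g3+/+, and 46.3 and 17.0 in colon labelled Pla2g3-/-. The decrease in Pla2g3+/+ was 535-fold (log2 ratio -9.06), the largest among the P450 genes well above background on both arrays, against 2.72-fold (-1.45) in colon labelled Pla2g3-/-. The second of these lay within 2-fold with quantile normalization (-0.91), with normexp and quantile normalization (-0.95) and without scaling (-0.60). Cyp2c65 went from 7.90 to 0.171 in Pla2g3+/+ (-5.53) and from 8.14 to 0.861 in colon labelled Pla2g3-/- (-3.24). Cyp2c66 followed it closely, from 9.45 to 0.211 (-5.48) and from 10.0 to 1.09 (-3.20), and its probe also lists a transcript of Cyp2c65, so that these 2 genes may share signal.

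Further along the cluster, 6 genes behaved differently in the 2 genotypes. Cyp2c29, Cyp2c39, Cyp2c67, Cyp2c68, Cyp2c37 and Cyp2c54 were lower after AOM in Pla2g3+/+ and between 0.58 and 1.39 above vehicle, on the log2 scale, in colon labelled Pla2g3-/-. Relative intensity of Cyp2c68 was 5.15 with vehicle and 0.183 after AOM in Pla2g3+/+ (-4.81), and 4.27 and 9.01 in colon labelled Pla2g3-/- (1.08). That of Cyp2c54 was 0.402 and 0.0189 in Pla2g3+/+ (-4.41), and 0.272 and 0.716 in colon labelled Pla2g3-/- (1.39). Both were lowest on the Pla2g3+/+ AOM array and highest on the AOM array labelled Pla2g3-/-. The value of Cyp2c54 rests on 1 probe, since its 2 other probes were not well above background on any array, and in colon labelled Pla2g3-/- it was 0.96 with normexp and quantile normalization and 0.17 as the mean over all probes. Cyp2c29, whose probe was printed in 10 spots, gave 4.28, 3.48, 0.184 and 5.19 over the 4 arrays in the order used above (-4.54 in Pla2g3+/+ and 0.58 in colon labelled Pla2g3-/-). Cyp2c67 gave 10.7, 9.03, 0.633 and 16.8 (-4.08 and 0.89), the second past 2-fold after normexp and quantile normalization (1.27). The lowest and highest arrays of these genes were those of Cyp2c68. For Cyp2c39 the signal on the Pla2g3+/+ AOM array was not well above background, and it was at least 13.8-fold lower than with vehicle there, and lay within 2-fold (-0.94) after normexp and quantile normalization. Cyp2c37 was at least 17.1-fold lower after AOM in Pla2g3+/+ and 2.27-fold higher in colon labelled Pla2g3-/- by its brightest probe. Its other probe, well above background on all 4 arrays, stayed within 2-fold in both (-0.61 and -0.97), so the change of Cyp2c37 rests on 1 probe. With normexp and quantile normalization, the ratio of that probe in colon labelled Pla2g3-/- was 0.76. Cyp2c38, Cyp2c70 and Cyp2c44 lay within 2-fold in every comparison, and Cyp2c50 was not well above background on any array.

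**Figure D3:**
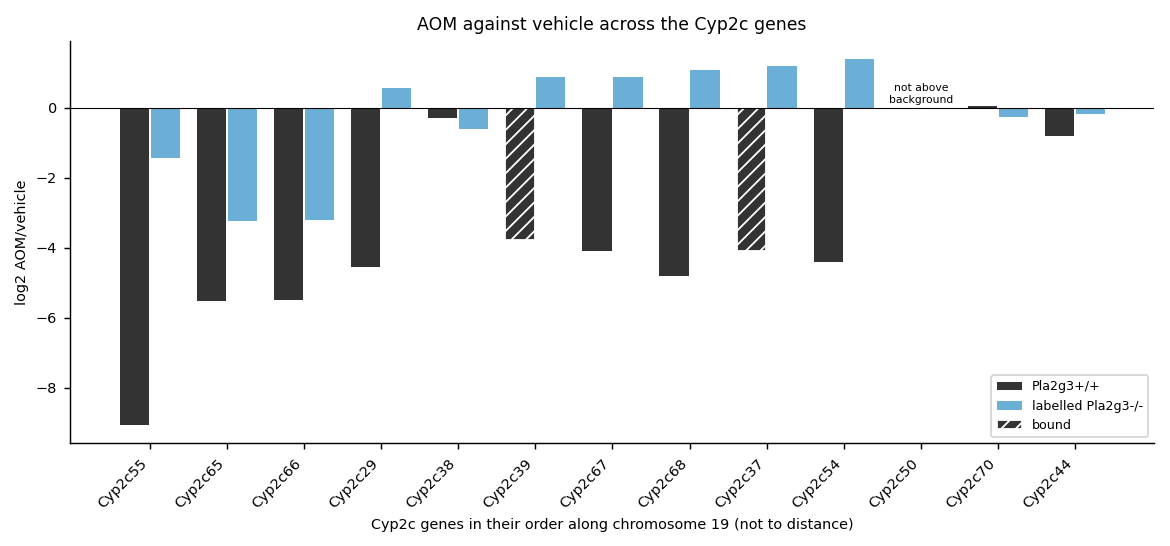
Log2 ratio of AOM over vehicle (y axis) for the Cyp2c genes in their order along chromosome 19 (x axis, not to distance), in Pla2g3+/+ colon (dark bars) and in colon labelled Pla2g3-/- (blue bars); hatched bars are bounds. Cyp2c55, Cyp2c65 and Cyp2c66 are below 0 in both, and the bars of Cyp2c29, Cyp2c39, Cyp2c67, Cyp2c68, Cyp2c37 and Cyp2c54 point in opposite directions.

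Promoters of 4 Cyp2c genes are shown because genes of the same cluster moved in different ways. They are the 250 bases before the start of the transcript in RefSeq, build GRCm38.p6, from 5′ to 3′, and 55 of the 68 genes had an entry. Capitals mark GCGTG, the core of the xenobiotic response element bound by the aryl hydrocarbon receptor, TATAAA, the TATA box, and CAAAGTCCA, a motif typical of the nuclear receptor HNF4A, each searched on both strands; the last 2 were chosen after the values were seen. The first 3 belong to the genes that were lower in both genotypes, and Cyp2c67 to those that were not.
Cyp2c55, chr19:39006769-39007018, plus strand: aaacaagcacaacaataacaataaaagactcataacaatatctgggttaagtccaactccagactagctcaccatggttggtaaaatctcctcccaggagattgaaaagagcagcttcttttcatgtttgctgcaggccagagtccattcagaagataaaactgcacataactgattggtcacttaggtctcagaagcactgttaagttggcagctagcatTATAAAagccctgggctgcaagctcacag
Cyp2c65, chr19:39060756-39061005, plus strand: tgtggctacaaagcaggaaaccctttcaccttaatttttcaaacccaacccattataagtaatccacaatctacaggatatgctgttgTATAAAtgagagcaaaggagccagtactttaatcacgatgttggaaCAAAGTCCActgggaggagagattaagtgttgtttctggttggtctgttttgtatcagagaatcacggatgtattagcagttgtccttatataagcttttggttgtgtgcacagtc
Cyp2c66, chr19:39113648-39113897, plus strand: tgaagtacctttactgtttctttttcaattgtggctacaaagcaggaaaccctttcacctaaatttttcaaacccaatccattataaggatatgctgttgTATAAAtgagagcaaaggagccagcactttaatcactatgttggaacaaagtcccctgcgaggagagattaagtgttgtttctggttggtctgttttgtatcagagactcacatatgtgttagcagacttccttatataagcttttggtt
Cyp2c67, chr19:39649043-39649292, minus strand: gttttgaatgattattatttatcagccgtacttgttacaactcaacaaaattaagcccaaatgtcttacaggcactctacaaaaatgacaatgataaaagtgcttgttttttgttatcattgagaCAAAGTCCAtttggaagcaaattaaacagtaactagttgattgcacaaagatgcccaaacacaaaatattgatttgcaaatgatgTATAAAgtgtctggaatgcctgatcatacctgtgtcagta
The windows of Cyp2c65 and Cyp2c66 are near copies, with 256 of 300 bases identical in a global alignment that also held the 50 bases after the start, and TATAAA stands in all 4. CAAAGTCCA stands in those of Cyp2c65 and Cyp2c67, so it did not separate the 2 patterns. Over all entries, TATAAA was in the promoters of 23 of 55 P450 genes (41.8%) and of 15.7% of all genes, and in 8 of 11 for Cyp2c. CAAAGTCCA was in 6 of 55 (Cyp2c65, Cyp2c67, Cyp2c68, Cyp2c70, Cyp3a11 and Cyp3a16, 10.9%) and in 0.555% of all genes. GCGTG was in 12 of 55 (21.8%) and in 35.2% of all genes. These matches describe letters in the window and not binding. Hnf4a itself, named here for its motif, gave log2 ratios of AOM over vehicle of -0.93 in Pla2g3+/+ and 0.38 in colon labelled Pla2g3-/-. Its ratios of the array labelled Pla2g3-/- over the Pla2g3+/+ array were 0.18 with vehicle and 1.49 after AOM.

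Close duplicates also limit what a probe can tell apart. The dimmer probe of Cyp2c67 and the probe of Cyp2c68 share 55 of 59 aligned bases, and 30 of them are printed here with the differing bases in capitals.
Cyp2c67 probe: acAcagtcccagAaattccatctatattcc
Cyp2c68 probe: acCcagtcccagGaattccatctatattcc
The ratios of these 2 probes were close, with -5.18 and -4.81 for AOM over vehicle in Pla2g3+/+ and 0.82 and 1.08 in colon labelled Pla2g3-/-. The array files listed transcripts of another gene for the chosen probe of 7 P450 genes, Cyp2a4, Cyp2c44 (under its newer symbol Cyp2c23), Cyp2c66, Cyp2c67, Cyp2c68, Cyp2j13 and Cyp3a11, and the values of these are uncertain to that extent.

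The Cyp2d genes, which oxidize many drugs and lie in a cluster on chromosome 15, moved together in Pla2g3+/+ colon. All 9 on the array were lower there after AOM, with log2 ratios from -3.97 to -2.43. In colon labelled Pla2g3-/-, 6 of the 9 were within 2-fold, Cyp2d10 and Cyp2d13 were higher, and Cyp2d26 was lower. Relative intensity of Cyp2d10 was 6.67 with vehicle and 0.471 after AOM in Pla2g3+/+ (-3.82), and 3.46 and 7.80 in colon labelled Pla2g3-/- (1.17). Cyp2d13 gave 0.124 and 0.0802 with vehicle in the 2 genotypes and 0.196 on the AOM array labelled Pla2g3-/- (1.29), while it was not well above background on the Pla2g3+/+ AOM array, at least 9.85-fold lower than with vehicle. Cyp2d26 went from 9.49 to 0.948 in Pla2g3+/+ (-3.32) and was 7.77 with vehicle and 3.89-fold lower after AOM in colon labelled Pla2g3-/- (-1.96). Cyp2d26 was the one member of the subfamily past 2-fold downward in both. After AOM, all 9 were higher on the array labelled Pla2g3-/- than on the Pla2g3+/+ array, by 1.08 to 4.05 on the log2 scale. With vehicle, all 9 lay within 2-fold between the genotypes (-0.95 to 0.23). With normexp and quantile normalization, Cyp2d13 lay within 2-fold after AOM in both genotypes (-0.87 and 0.67), and Cyp2d40 lay within 2-fold in Pla2g3+/+ (-0.62) and between the AOM arrays (0.36), as Cyp2d26 did between them without scaling (0.91).

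The Cyp3a genes are steroid and drug oxidases clustered on chromosome 5, with Cyp3a13 outside the cluster. They stood apart in that most were already lower with vehicle on the array labelled Pla2g3-/-. Over all 48 P450 genes with a value, none was over 2-fold higher and 7 were over 2-fold lower on the vehicle array labelled Pla2g3-/- than on the Pla2g3+/+ vehicle array, where 2.16% and 1.5% of all genes were. The SD of this log2 ratio over all measured genes was 0.37, and the median was -0.27 for the P450 genes and -0.03 for all genes. The 7 were Cyp3a16, Cyp3a25, Cyp3a44, Cyp3a57, Cyp3a59, Cyp4b1 and Cyp4f18, so 5 of the 7 Cyp3a genes were among them. With normexp background correction and quantile normalization, 1 of the 48 was lower, Cyp4b1, where 55 of 19189 of all genes were. The 5 Cyp3a genes then lay within 2-fold, with log2 ratios from -0.83 to -0.49. Relative intensity with vehicle was 0.719 in Pla2g3+/+ and 0.332 on the array labelled Pla2g3-/- for Cyp3a44 (-1.11). It was 0.216 and 0.0866 for Cyp3a16 (-1.32), and 0.188 and 0.0643 for Cyp3a25 (-1.55). For Cyp3a59 it was 0.172 and 0.0501 (-1.77). These 4 genes were well above background on both vehicle arrays. Cyp3a57 gave 0.0941 on the Pla2g3+/+ vehicle array, the only array where it was well above background, and was at least 3.95-fold lower on the array labelled Pla2g3-/-. All 5 were highest on the Pla2g3+/+ vehicle array.

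**Figure D4:**
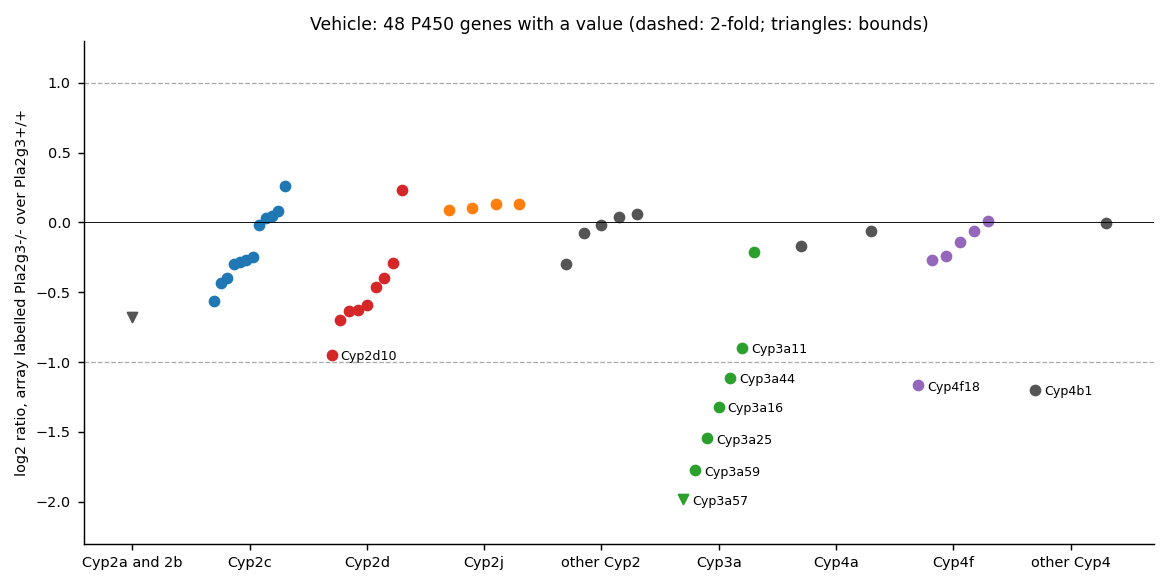
Log2 ratio of the vehicle array labelled Pla2g3-/- over the Pla2g3+/+ vehicle array (y axis) for 48 P450 genes, by subfamily (x axis). Each point is 1 gene, triangles are bounds and dashed lines mark 2-fold; 5 Cyp3a genes, Cyp4b1 and Cyp4f18 lie below -1 and no gene lies above 1.

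After AOM, signals of most of these genes were no longer well above background in either genotype. Cyp3a44 was at least 57.2-fold lower than with vehicle in Pla2g3+/+ and at least 22.7-fold lower in colon labelled Pla2g3-/-. Cyp3a25 was at least 14.9-fold and 4.39-fold lower, and Cyp3a59 at least 13.7-fold and 3.43-fold lower. Cyp3a16, a form known from fetal liver, was 10.1-fold lower in Pla2g3+/+, where it was still measured after AOM, and at least 5.92-fold lower in colon labelled Pla2g3-/-. Cyp3a57 was at least 7.49-fold lower in Pla2g3+/+. With normexp and quantile normalization, Cyp3a57 lay within 2-fold in Pla2g3+/+ (-0.61), and Cyp3a16 (-0.62), Cyp3a25 (-0.37) and Cyp3a59 (-0.32) in colon labelled Pla2g3-/-. Cyp3a13, the form known for its expression outside the liver and named here after its values were seen, had another course, with 6.91 and 5.98 with vehicle, 0.341 on the Pla2g3+/+ AOM array and 5.01 on the AOM array labelled Pla2g3-/-. It was 20.3-fold lower after AOM in Pla2g3+/+ and stayed within 2-fold in colon labelled Pla2g3-/- (-0.25). Cyp3a11, a main drug oxidase of mouse liver, was 5.27-fold lower after AOM in Pla2g3+/+ by a probe whose listed transcripts include those of Cyp3a44, and within 2-fold with normexp and quantile normalization (-0.90). With vehicle this probe gave a log2 ratio between genotypes of -0.90, and a dimmer probe listed for Cyp3a11 alone gave 1.31. After AOM the dimmer probe was not well above background in either genotype. It was at least 2.35-fold lower than with vehicle in Pla2g3+/+ and at least 5.03-fold lower in colon labelled Pla2g3-/-. The brighter probe stayed within 2-fold in colon labelled Pla2g3-/- (-0.38), so the course of Cyp3a11 there depends on the probe.

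Promoters of 4 Cyp3a genes are shown, printed and marked as above, because 3 of these genes were lower with vehicle on the array labelled Pla2g3-/- and after AOM in both genotypes, and Cyp3a13 was not.
Cyp3a44, chr5:145805875-145806124, minus strand: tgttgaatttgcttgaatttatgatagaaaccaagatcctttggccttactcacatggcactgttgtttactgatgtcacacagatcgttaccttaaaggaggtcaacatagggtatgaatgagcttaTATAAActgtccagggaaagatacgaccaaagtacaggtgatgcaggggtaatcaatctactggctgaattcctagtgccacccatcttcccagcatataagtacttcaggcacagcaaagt
Cyp3a16, chr5:145469724-145469973, minus strand: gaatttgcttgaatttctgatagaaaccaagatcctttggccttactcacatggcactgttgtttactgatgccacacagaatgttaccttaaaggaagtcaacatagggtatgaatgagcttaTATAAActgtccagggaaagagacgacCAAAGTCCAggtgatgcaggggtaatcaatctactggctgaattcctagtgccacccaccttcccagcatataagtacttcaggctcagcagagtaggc
Cyp3a59, chr5:146079008-146079257, plus strand: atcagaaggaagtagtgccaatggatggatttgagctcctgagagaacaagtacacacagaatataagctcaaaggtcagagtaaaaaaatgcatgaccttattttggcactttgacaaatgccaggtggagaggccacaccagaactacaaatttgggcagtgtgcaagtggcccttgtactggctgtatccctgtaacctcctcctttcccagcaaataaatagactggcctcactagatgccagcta
Cyp3a13, chr5:137921620-137921869, minus strand: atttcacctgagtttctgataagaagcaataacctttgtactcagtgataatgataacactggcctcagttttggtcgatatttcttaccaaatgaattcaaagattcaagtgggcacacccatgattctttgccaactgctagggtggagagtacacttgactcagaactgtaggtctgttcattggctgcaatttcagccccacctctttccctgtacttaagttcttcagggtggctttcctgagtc
The Cyp3a genes that were lower with vehicle on the array labelled Pla2g3-/- fell into a pair and a trio of near identical promoters. Cyp3a16 and Cyp3a44 had 284 of 300 bases identical (94.7%), and Cyp3a25, Cyp3a57 and Cyp3a59 had 270 to 289 of 300 identical between any pair (90 to 96.3%). TATAAA stands in the windows of Cyp3a44 and Cyp3a16 and not in those of Cyp3a59 and Cyp3a13, CAAAGTCCA stands in that of Cyp3a16, and GCGTG stands in none of the 7 for Cyp3a. The chosen probes of these genes were less alike. Over 2278 pairs of the 68 chosen probes, only Cyp4a10 and Cyp4a31 had at least 80% identical bases over at least 40 aligned bases. Probes were compared with each other and not with transcripts of other genes, so shared signal between near duplicates cannot be judged from it. The chosen probe of Cyp3a11 lists transcripts of Cyp3a44, a pair that this comparison did not find.

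Hepatocyte markers moved in the comparison where the Cyp3a genes differed with vehicle. Of 10 such markers, 7 were over 2-fold higher on the vehicle array labelled Pla2g3-/- (Ahsg at least 4.97, Alb 4.73 and Serpina1a 3.83 on the log2 scale), and their summed relative intensity was 5.05, 10.5, 4.80 and 3.96 over the 4 arrays. Fgb, Fgg and Ahsg were well above background on that array alone. The Cyp3a genes went the opposite way on it, and the enterocyte marker Sis, which encodes sucrase-isomaltase, was also lower there (-2.32). Of the 8 small intestinal enterocyte markers with a value, 1 was higher and 1 lower in this comparison. The summed relative intensity of all 10 on the array was 137, 160, 1.36 and 11.7. On the vehicle arrays this sum was mostly Fabp2, with processed intensities of 85702 and 101265. The next brightest marker there, Fabp6, gave 1425 and 1689. After AOM in colon labelled Pla2g3-/-, where 4 Cyp3a genes were lower, 7 of 9 hepatocyte markers with a value were lower too (median -3.17). Of 9 small intestinal enterocyte markers there, 4 were higher and 4 lower. After AOM in Pla2g3+/+, where all 7 Cyp3a genes were lower, 2 of 7 hepatocyte markers with a value were higher and 3 lower (median -0.99). Alb was among the higher ones (6.40), with a processed intensity of 2782 on the Pla2g3+/+ AOM array, its highest. The part of these markers in the Cyp3a results was not tested.

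In family 4, Cyp4b1 and most Cyp4f genes were lower after AOM in Pla2g3+/+, and Cyp4f18 was higher. Cyp4b1, which hydroxylates fatty acids and activates some pulmonary toxins, gave 2.04 with vehicle in Pla2g3+/+ and 0.886 on the vehicle array labelled Pla2g3-/-. After AOM it was not well above background in Pla2g3+/+, at least 162-fold lower than with vehicle, and it was 0.173 on the array labelled Pla2g3-/-, 5.13-fold lower. Its ratio between genotypes thus had opposite signs, -1.20 with vehicle and at least 3.78 after AOM. Cyp4f14, an enzyme that hydroxylates leukotriene B4, gave 9.26, 8.40, 0.257 and 4.01, and was 36.1-fold lower after AOM in Pla2g3+/+ and 2.1-fold lower in colon labelled Pla2g3-/-, where it lay within 2-fold with quantile normalization (-0.80). Cyp4f13, Cyp4f16, Cyp4f17 and Cyp4f40 were also lower after AOM in Pla2g3+/+, with log2 ratios from -1.56 to -1.11, and within 2-fold in colon labelled Pla2g3-/-. Without scaling all 4 lay within 2-fold in Pla2g3+/+ as well (-0.54 to -0.09). Cyp4f18, the leukotriene B4 hydroxylase of neutrophils, went the other way. Its relative intensity was 0.681 and 0.304 with vehicle, 2.90 on the Pla2g3+/+ AOM array and 0.306 on the AOM array labelled Pla2g3-/-, so the Pla2g3+/+ AOM array was highest, 4.26-fold above its vehicle array. Its lower level on the vehicle array labelled Pla2g3-/- lay within 2-fold with normexp and quantile normalization (-0.60) and by its dimmer probe (-0.82). Macrophage and neutrophil markers moved with it in part. Of 8 such markers, 5 were higher and 1 lower after AOM in Pla2g3+/+ (S100a8 7.62, S100a9 7.32). In colon labelled Pla2g3-/-, 2 were higher, where Cyp4f18 stayed level (0.01). Between the vehicle arrays, 0 of the 7 with a value passed 2-fold. Between the AOM arrays, 6 were lower and 1 was higher on the one labelled Pla2g3-/-. Their summed relative intensity was 74.9, 73.0, 108 and 72.2, and their part in the Cyp4f18 result was not tested. Of the Cyp4a genes, fatty acid hydroxylases that respond to the receptor PPARA, Cyp4a10 and Cyp4a31 stayed within 2-fold in all 4 comparisons. Cyp4v3, a fatty acid hydroxylase, was 2.05-fold higher after AOM in colon labelled Pla2g3-/- and within 2-fold in Pla2g3+/+, and with normexp and quantile normalization it lay within 2-fold in both (0.79 in the first).

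The P450 genes over 2-fold higher after AOM in Pla2g3+/+ were Cyp4f18, Cyp2b10, Cyp2b9 and Cyp1b1, and the last 3 were not well above background on either vehicle array. Cyp2b10, the best known target of the constitutive androstane receptor, gave 3.27 on the Pla2g3+/+ AOM array and 0.317 on the AOM array labelled Pla2g3-/-. It was at least 197-fold and at least 13.9-fold above the vehicle arrays, and 10.3-fold lower on the second AOM array than on the first. Cyp2b9 gave 0.0532 on the Pla2g3+/+ AOM array, its only signal well above background, at least 3.2-fold above vehicle. Cyp1b1, an oxidase of estrogens and polycyclic hydrocarbons, gave 0.0716 on the Pla2g3+/+ AOM array and 0.0251 on the AOM array labelled Pla2g3-/-. It was at least 4.31-fold above vehicle in Pla2g3+/+, while in colon labelled Pla2g3-/- the bound was 1.1-fold. Both of these dim genes lay within 2-fold with normexp and quantile normalization, with 0.26 for Cyp2b9 and 0.41 for Cyp1b1 in Pla2g3+/+. Cyp1a1 and Cyp1a2, the other members of family 1 and targets of the aryl hydrocarbon receptor, were not well above background on any array. The remaining genes that were higher after AOM in colon labelled Pla2g3-/- include Cyp2a4, a steroid hydroxylase, at least 2.12-fold above its vehicle array. Its other probe gave 0.22, the mean over its probes 0.65, and normexp and quantile normalization 0.26, all within 2-fold. Cyp2a12 (0.0325) and Cyp2j11 (0.0399) were well above background on the AOM array labelled Pla2g3-/- alone, and lay at least 2.59-fold and at least 3.17-fold above the Pla2g3+/+ AOM array, against 0.13 and 0.15 on the log2 scale with normexp and quantile normalization.

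Cyp2f2, the enzyme of airway epithelium that activates naphthalene, had the largest ratio between genotypes after AOM among the P450 genes with a value, bounds taken as they stand. Its relative intensity was 1.21 with vehicle and 0.0373 after AOM in Pla2g3+/+ (-5.02), and 0.983 and 9.69 in colon labelled Pla2g3-/- (3.30). The AOM array labelled Pla2g3-/- was 260-fold above the Pla2g3+/+ AOM array. Cyp2s1, an epithelial oxidase, gave 14.5, 14.9, 1.40 and 28.3, 10.4-fold lower after AOM in Pla2g3+/+ and within 2-fold in colon labelled Pla2g3-/- (0.92). Cyp2u1, which hydroxylates fatty acids and is named here after its values were seen, was bright on every array and stayed within 2-fold in all comparisons, with 38.8, 40.5, 55.4 and 41.7. Its chosen probe lists no RefSeq transcript, and of its other probes 1 gave processed intensities of 50.3 to 74.8 over the arrays, within 2-fold in every comparison, and 1 was not well above background on any array. Of the 6 Cyp2j genes on the array, arachidonic acid epoxygenases, Cyp2j6, Cyp2j8 and Cyp2j13 were within 2-fold in every comparison. Cyp2j9 was lower after AOM in Pla2g3+/+ (-1.95, and -0.93 without scaling) and higher on the AOM array labelled Pla2g3-/- than on the Pla2g3+/+ AOM array (1.92).

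Set against each other after AOM, the array labelled Pla2g3-/- was over 2-fold higher than the Pla2g3+/+ array for 30 of the 51 genes with a value, where 14.5% of all genes were. It was lower for Cyp1b1 (-1.51), Cyp2b9 (at least 3.63-fold), Cyp2b10 (-3.36) and Cyp4f18 (-3.24), 4 genes, where 13.1% of all genes were. With normexp and quantile normalization, Cyp1b1 (-0.31) and Cyp2b9 (-0.23) lay within 2-fold here. The median was 1.25 for the P450 genes and 0.02 for all genes, and for the P450 genes it was 0.66 with normexp and quantile normalization. With bounds taken as they stand, the 10 highest were Cyp2f2 (8.02), Cyp2c55 (7.33), Cyp2c68 (5.62), Cyp2c54 (5.24), Cyp2c37 (at least 4.88), Cyp2c29 (4.82), Cyp2c67 (4.73), Cyp2s1 (4.33), Cyp2c39 (at least 4.23) and Cyp2d10 (4.05). This comparison uses the Pla2g3+/+ AOM array, as does that of AOM with vehicle in Pla2g3+/+, so the 2 counts are not independent.

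Most genes for the enzymes that serve P450 proteins stayed within 2-fold. Of 17 genes for the reductase, cytochrome b5 and heme synthesis or breakdown, 1 was higher and 2 were lower after AOM in Pla2g3+/+ (median -0.27), and 3 were lower in colon labelled Pla2g3-/- (median -0.33). The higher one was Hmox1, which breaks down heme (3.84, against -1.97 in colon labelled Pla2g3-/-). Between genotypes none passed 2-fold with vehicle, and after AOM Hmox1 alone did (-5.69). Of 21 receptors and factors that sense xenobiotics or lipids, 10 were lower and 2 higher after AOM in Pla2g3+/+ (median -0.94), and 3 were lower and 1 higher in colon labelled Pla2g3-/- (median -0.10). The largest changes in Pla2g3+/+ were those of Ppara (-3.74), the fatty acid receptor, Cdx2 (-3.59), an intestinal transcription factor, and Vdr (-3.43), the vitamin D receptor. Between genotypes, none of the 21 passed 2-fold with vehicle, and 12 were higher and 1 lower after AOM. Of 11 epoxide hydrolases and enzymes that handle aldehydes or quinones, 7 were lower and 1 higher after AOM in Pla2g3+/+ (median -1.51; Adh1 -5.34, Aldh1a1 -5.04, Cbr3 -3.65), and 2 were lower in colon labelled Pla2g3-/- (median -0.15). None passed 2-fold between genotypes with vehicle, and 6 were higher on the array labelled Pla2g3-/- after AOM. P450 families above 4, which make steroids, bile acids and prostanoids, were split in direction. Of the 14 with a value in Pla2g3+/+, 6 were higher and 5 lower after AOM (median 0.76), led by Cyp21a1, the adrenal steroid hydroxylase (3.34). In colon labelled Pla2g3-/-, 2 of 11 were higher and 4 lower, and between genotypes 0 of 12 passed 2-fold with vehicle and 1 of 13 was higher and 5 lower after AOM.

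Other cell type markers are given as values, and their part in the P450 results was not tested. After AOM in Pla2g3+/+, 6 of 7 goblet cell markers and 6 of 6 adipocyte markers were lower, 9 of 9 Wnt targets of colon tumors and 3 of 6 endothelial markers were higher, and 5 of 8 small intestinal enterocyte markers were lower. In colon labelled Pla2g3-/-, 4 of 7 goblet cell and 6 of 6 adipocyte markers were lower, 1 of 9 Wnt targets was higher and 1 lower, and 1 of 8 smooth muscle markers was higher. Of 12 colonocyte markers 2 were higher and 3 lower there, and of 6 endothelial markers 2 were higher and 1 lower. Between the AOM arrays, 8 of 9 Wnt targets were lower on the one labelled Pla2g3-/- (median -2.60), as was 1 of 6 endothelial markers. Higher on it were 8 of 8 smooth muscle (median 4.15), 6 of 7 goblet cell (2.13) and 5 of 6 adipocyte markers (1.87). Of 12 colonocyte markers 7 were higher and 1 lower on it (median 1.97), and 6 of 8 small intestinal enterocyte markers were higher (2.40). Of 5 hepatocyte markers with a value, 1 was higher and 1 lower. Summed relative intensity over the 4 arrays was 1245, 1186, 161 and 543 for goblet cell markers, 18.6, 38.8, 2.28 and 5.58 for adipocyte markers, 7.38, 7.17, 51.2 and 8.82 for Wnt targets, and 6.04, 6.36, 6.65 and 4.89 for endothelial markers.

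A fit of treatment and genotype together was the one test the 4 arrays allowed, with 1 residual degree of freedom. By limma with Benjamini-Hochberg adjustment over 21036 genes, 0 of 55 P450 genes passed an adjusted p of 0.05 for treatment and 0 for genotype, as for all genes (0% in both). At an unadjusted p under 0.05 there were 9 of 55 for treatment, a share close to that over all genes (3166 of 21036). For genotype there were 3 of 55, against 270 of 21036 over all genes. The 9 were Cyp2b10, Cyp2c65, Cyp2c66, Cyp2d26, Cyp3a16, Cyp3a25, Cyp3a44, Cyp3a59 and Cyp4f39, each with an adjusted p of 0.329. The fit uses dim signals as measured, and those of Cyp4f39 on the vehicle arrays were not well above background. Since it takes a change that differs between genotypes as error, it can only call genes that moved alike in both pairs of arrays.

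The 13 genes not well above background on any array were Cyp1a1, Cyp1a2, Cyp2a22, Cyp2b13, Cyp2b19, Cyp2b23, Cyp2c50, Cyp2g1, Cyp2j5, Cyp4a14, Cyp4a32, Cyp4f15 and Cyp4x1. A difference in them was not detectable on these arrays.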

How the data were processed

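RNA of whole descending colon, 27.7 ng per pool, was measured on 4 one-color (Cy3) Whole Mouse Genome arrays of 1 slide, 1 array for each labelled group. The labels give 3 to 5 mice per pool. The authors deposited spot intensity from Agilent Feature Extraction 11.5.1.1, with the background subtracted and trends across the array removed but no scaling between arrays, and a table of the ratio of that intensity to the 75th percentile of its array. This was checked on the files. Flags in the same files gave the spots well above background, and outlier spots were dropped. Spots of a probe were averaged as log2 values, the brightest probe by mean intensity over the arrays stood for a gene, and the 75th percentile was subtracted. No spot was saturated. A bound sets the bright signal against the higher of the dim signal and the lowest signal well above background on that array. Coordinates of probes are on mm9, and a RefSeq table of GRCm38.p6 served for names (67 of 68 genes matched) and promoters. Proteins were not analysed here.

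The number of arrays, 1 per group, limits the precision. The fit used limma 3.58.1 in R 4.3.3 on genes well above background on at least 1 array, and was tested on simulated data. Tables were made with Python 3.11.15, pandas 2.3.3 and numpy 2.4.6. Named genes were all of family 1, up to 10 of the largest rises and falls past 2-fold in each comparison, those past 2-fold in opposite directions in the paired comparisons, those well above background on 1 array, those whose probes passed 2-fold in opposite directions and, by symbol, those never well above background. Of other lists, up to 3 genes per comparison were named. Genes named outside this rule, such as Cyp3a13, Cyp3a11, Cyp2u1, Cyp2j9 and Hnf4a, were singled out after their values were seen. The members and lists were chosen with earlier results of these data known. Alternatives were other scalings, background corrections, filters, probe choices and thresholds, and the deposited table.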

Additional observations from a re-analysis of the deposited data

Results flagged for a closer look

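Of the 51 P450 genes with a value for AOM over vehicle in both genotypes, 6 passed 2-fold in opposite directions, lower in Pla2g3+/+ and higher in colon labelled Pla2g3-/-, where 1.14% of all genes with a value in both did so. The log2 ratios lay apart by 8.32 for Cyp2f2, 5.89 for Cyp2c68, 5.80 for Cyp2c54, 5.28 for Cyp2c37, 5.00 for Cyp2d10 and 4.59 for Cyp2d13, where the values for Cyp2c37 and Cyp2d13 rest on a bound in Pla2g3+/+. With normexp and quantile normalization, the ratio in colon labelled Pla2g3-/- was under 2-fold for Cyp2c37 (0.76), Cyp2c54 (0.96) and Cyp2d13 (0.67), and that of Cyp2d13 in Pla2g3+/+ was too (-0.87), so that 3 of the 6 then passed in opposite directions. In the comparison between genotypes, Cyp4b1 was lower with vehicle and higher after AOM on the array labelled Pla2g3-/-, with log2 ratios that lay 4.98 apart, the second a bound. With 1 array per group none of these differences was tested.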

How the results depend on the processing

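Most ratios of single P450 genes kept their direction and their side of 2-fold, and the counts depended on the setting as follows. With normexp and quantile normalization, 32 ratios of single genes no longer passed 2-fold and 2 newly did, the most of any setting for the first. For AOM over vehicle in colon labelled Pla2g3-/-, the 9 higher genes became 2 at a 4-fold threshold and 19 without scaling. Over all genes, 1998 of 19204 became 335 and 7348 of 19548. The 10 lower genes became 6 at 4-fold and 5 with normexp and quantile normalization, where 3125 of 19204 over all genes became 729 and 953 of 19529. They became 6 of 42 when both signals had to be well above background, where 2506 of 17350 of all genes were lower. In Pla2g3+/+, the 4 higher genes became 12 without scaling, where 3101 of 20228 over all genes became 8937 of 20072. They became 1 of 41 when both signals had to be well above background, where 2486 of 17877 of all genes were higher. With normexp and quantile normalization, Cyp1b1 (0.41) and Cyp2b9 (0.26) no longer passed, and 1827 of 20366 of all genes were higher. Between genotypes after AOM, the 4 lower genes became 2 at 4-fold, 2 with normexp and quantile normalization and 8 without a filter on dim probes. Over all genes, 2637 of 20083 became 1088, 1322 of 20151 and 3385 of 27357 in the same order. With vehicle, the 7 lower genes became 14 at a 1.5-fold threshold, 0 at 4-fold and 1 with normexp and quantile normalization. Over all genes, 285 of 19052 became 762, 78 and 55 of 19189 in the same order. The 0 higher genes became 1 with the dimmest probe and 3 without the filter. For these, 411 of 19052 over all genes became 421 of 17288 and 883 of 27357. The dimmest probe turned Cyp2c37 to -0.97 for AOM over vehicle in colon labelled Pla2g3-/- and to -0.31 between genotypes after AOM, and Cyp3a11 to 1.31 between genotypes with vehicle. The count of lower genes after AOM in Pla2g3+/+ and that of higher genes on the AOM array labelled Pla2g3-/- stayed within 1.5 times under every setting run. The additive fit called 0 P450 genes under every setting. Some shifts follow from the settings themselves. A filter or threshold admits fewer or more genes, and the normexp offset of 50 lowers ratios of dim signals by construction. The cause of the remaining shifts was not tested. No paired analysis was possible because each group was 1 array without a replicate number, and no array could be left out for the same reason.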

Other observations

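Of 8 P450 genes of families 1 to 4 whose array names do not follow the plain pattern, 3 had a value in most comparisons. The pseudogene Cyp2d37-ps gave log2 ratios of AOM over vehicle of -3.26 in Pla2g3+/+ and 0.17 in colon labelled Pla2g3-/-, within the range of the Cyp2d genes in each. Cyp3a41b was lower on the vehicle array labelled Pla2g3-/- (-1.10) and was not well above background after AOM in either genotype, with bounds of -3.10 and -1.78 on the log2 scale. Cyp4f41-ps was lower after AOM in Pla2g3+/+ (-1.01) and in colon labelled Pla2g3-/- (a bound of -1.49). Cyp4a12b was well above background on the AOM array labelled Pla2g3-/- alone, with a bound between genotypes after AOM of 0.40.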
